A study of Mus musculus with 14 samples.

Results

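The subject is how the stem cells that carry AML1-ETO compare with normal granulocyte-monocyte progenitors in RNA from mouse bone marrow. The comparison sets the 3 libraries of AML1-ETO LT-HSCs (long-term haematopoietic stem cells) against the 4 libraries of control GMPs (granulocyte-monocyte progenitors), 7 of the 14 bulk RNA-seq libraries of the study, over all genes. It asks how far stem cells with the fusion had come towards the normal progenitor programme and what of it they lacked. The AML1-ETO cells had the genotype Runx1-Runx1t1, in which Mx1-Cre, a recombinase under an interferon-responsive promoter, switches on the mouse form of the fusion. The controls are labelled wild type, and whether they carried Mx1-Cre is not given. Sorted cells stayed in DMEM with 2% FBS in every group. All groups came from C57BL/6 mice, and poly(I:C) at 5 mg/kg in 4 doses is listed for every sample, controls included. The 4 control LT-HSC libraries are given beside the comparison to show where normal stem cells stood. The 3 AML1-ETO GMP libraries entered only the shared fit, in its filter of genes, its scaling and its estimate of the spread. Age, sex, sort markers and batch are not given in the labels, which also do not say whether the libraries of a group came from separate mice. The p-values therefore measure only the spread between these libraries.

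AML1-ETO is the product of the t(8;21) translocation of acute myeloid leukaemia. It keeps the DNA-binding domain of RUNX1 and joins it to most of RUNX1T1, a protein that recruits transcriptional corepressors. In normal bone marrow the GMP stage is defined by the transcription factors C/EBPα and PU.1, by receptors for myeloid colony-stimulating factors and by the first enzymes of the primary (azurophil) granule. GMPs also divide more than LT-HSCs, most of which rest outside the cell cycle.

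The genes of the fusion and some stem cell genes stood as the labels say, while other markers of AML1-ETO LT-HSCs, among them Cd34, Cd48 and Fcgr3 given with the sort genes, went against the usual LT-HSC pattern. Levels are given in CPM, the counts of a gene relative to the scaled total of its library. Runx1t1 stood at 85.6, 164 and 125 CPM in the AML1-ETO LT-HSCs, at 3.97, 0, 18.2 and 11.2 CPM in control LT-HSCs and, in control GMPs, at 2.62, 2.32, 1.69 and 2.74 CPM. Every AML1-ETO LT-HSC library lay above every control library, with a log2 fold change of 5.73 ± 0.96 (SE) over control GMPs (edgeR adjusted p = 0.000368). Runx1, to which transcripts of the fusion may also be counted, stood at 287, 440.3 and 302 CPM against 171, 212, 189.9 and 186 CPM in control GMPs (0.86 ± 0.18, adjusted p = 0.00183). The stem cell genes Hlf, Procr and Fgd5 were present in all 3 AML1-ETO LT-HSC libraries, and the granule gene Mpo had 17536 or more CPM in all 4 control GMP libraries. Totals ran from 13348118 to 17626822 counts in AML1-ETO LT-HSCs and from 16121039 to 19403864 in control GMPs, and the control LT-HSC libraries, at 13210952 to 15355518 counts, had fewer genes with any count (12106 to 15329) than the control GMP libraries (18747 to 19508). Control LT-HSC replicate 2 stood apart. Genes of B and plasma cells took 7.62% of its counts, against 1.52 to 2.00% in the other control LT-HSC libraries, 0.0584 to 0.108% in AML1-ETO LT-HSCs and 0.0422 to 0.0460% in control GMPs, and the part of these cells in the control LT-HSC values was not tested.

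AML1-ETO LT-HSCs and control GMPs differed across the transcriptome. At an edgeR adjusted p under 0.05, 2228 (13.8%) of the 16116 tested genes had more RNA in AML1-ETO LT-HSCs and 2790 (17.3%) had less, 31.1% in all. The values of the 2 groups did not overlap for 62.4% of the genes, so a lack of overlap at a single gene, called or not, is the common state. Control LT-HSCs were higher than control GMPs for 1702 genes (10.6%) and lower for 2247 (13.9%). These 2 comparisons share the control GMP libraries, so their values are set side by side and not tested against each other. The median absolute log2 fold change was 0.89 between AML1-ETO LT-HSCs and control GMPs and 0.69 between control LT-HSCs and control GMPs. The spread is shared by all 14 libraries, and a fit of the 7 compared libraries alone called 4648 genes higher and 4831 lower. These were 9479 of the 14694 genes it tested, so a call in that fit, given for single genes and lists below, is the common state. Median Pearson correlations of log2 CPM across genes, given as a description with genes not independent, put AML1-ETO LT-HSC libraries at 0.818 with control GMP libraries and at 0.789 with control LT-HSC libraries. By Spearman's rank correlation the order was the other way round, at 0.841 with control GMP libraries and 0.858 with control LT-HSC libraries. Between control LT-HSC and control GMP libraries the medians were 0.789 by Pearson and 0.849 by Spearman. Over the 11898 genes at 5 CPM or more in 3 libraries, the Pearson medians of AML1-ETO LT-HSCs were 0.687 with either control group. The Spearman medians over these genes were 0.749 with control GMP libraries and 0.804 with control LT-HSC libraries. Between control LT-HSC and control GMP libraries they were 0.671 by Pearson and 0.797 by Spearman. The libraries were thus not placed nearer to control GMPs by every measure.

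**Figure D1:**
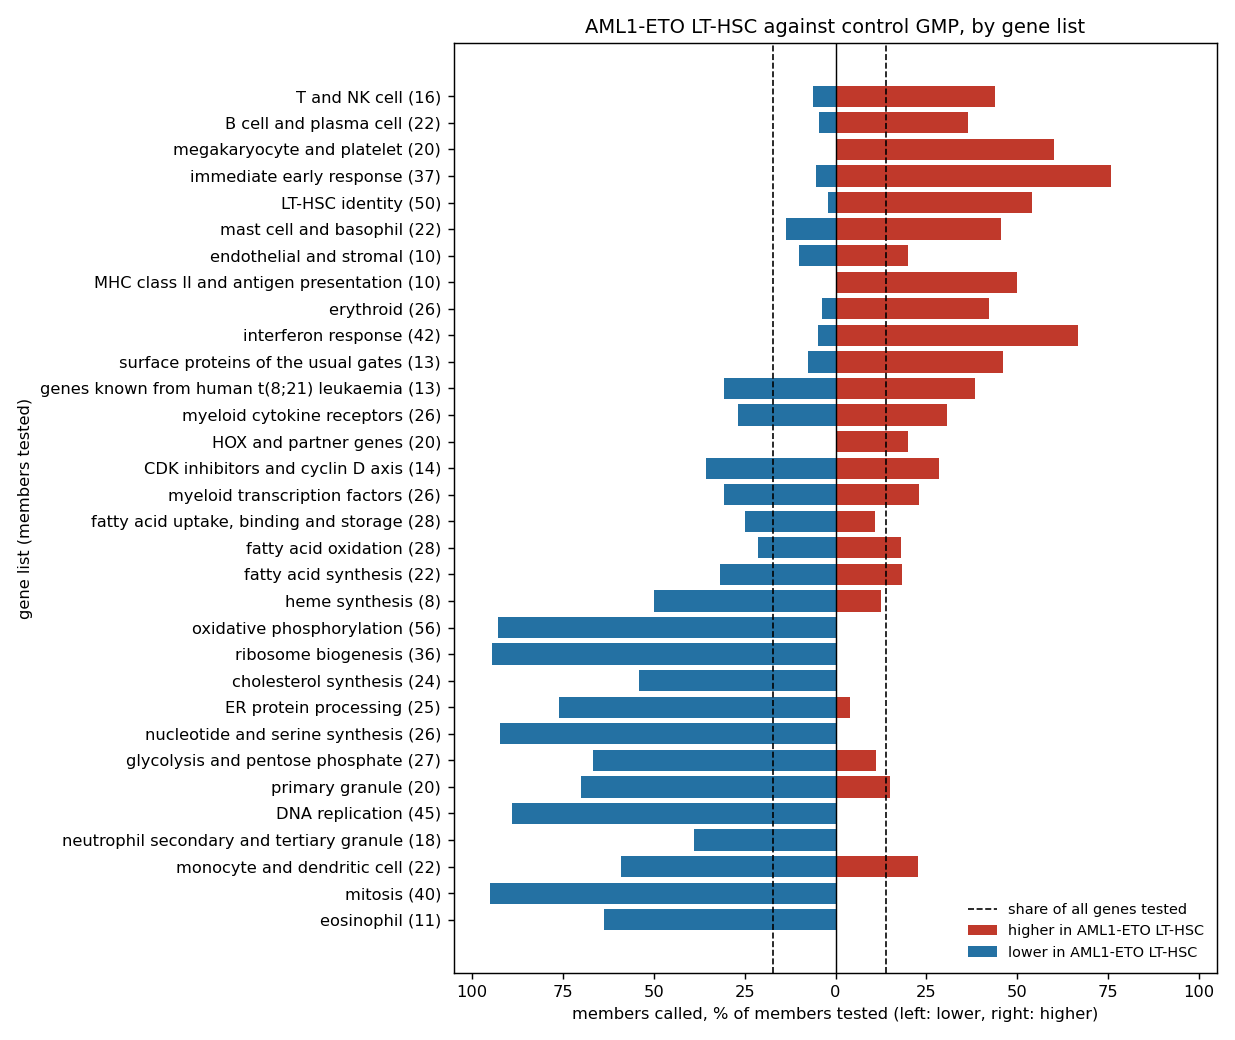
Share of each gene list that was called lower (blue, left) or higher (red, right) in 3 AML1-ETO LT-HSC libraries against 4 control GMP libraries, in % of members tested (number in brackets), ordered by median log2 fold change. Dashed lines mark the 17.3% lower and 13.8% higher over all genes. Mitosis and ribosome biogenesis genes were called lower almost throughout and immediate early genes mostly higher.

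The enzymes of the primary granule, the defining product of a normal GMP, were a clear gap, and the gap was uneven from gene to gene. The promoters of 4 of the granule enzyme genes are shown as a description only, and their bearing on the levels was not tested. Each runs from 250 bases before to 50 after the RefSeq gene start, on the gene's own strand in GRCm38.p6. Capitals mark matches to TGTGGT (a RUNX motif), GAGGAAGT (a PU.1 and ETS motif) or TTGCNNAA (a C/EBP motif), searched on both strands. No marked matches overlap. The Mpo window lies at chr11:87793534-87793833 on the plus strand, the Ctsg window at chr14:56102525-56102824 on the minus strand, the Elane window at chr10:79886062-79886361 on the plus strand and the Prtn3 window at chr10:79879417-79879716 on the plus strand.
Mpo: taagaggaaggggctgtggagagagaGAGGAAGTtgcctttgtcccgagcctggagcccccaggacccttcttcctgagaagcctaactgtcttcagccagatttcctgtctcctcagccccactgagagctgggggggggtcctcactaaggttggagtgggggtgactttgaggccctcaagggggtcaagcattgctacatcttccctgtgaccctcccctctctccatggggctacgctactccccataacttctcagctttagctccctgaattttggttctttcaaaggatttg
Ctsg: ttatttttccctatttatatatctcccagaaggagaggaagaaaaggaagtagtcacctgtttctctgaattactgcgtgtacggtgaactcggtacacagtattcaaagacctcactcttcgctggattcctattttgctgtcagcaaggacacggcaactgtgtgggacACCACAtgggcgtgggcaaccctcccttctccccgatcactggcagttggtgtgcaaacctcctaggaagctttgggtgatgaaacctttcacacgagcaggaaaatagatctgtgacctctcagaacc
Elane: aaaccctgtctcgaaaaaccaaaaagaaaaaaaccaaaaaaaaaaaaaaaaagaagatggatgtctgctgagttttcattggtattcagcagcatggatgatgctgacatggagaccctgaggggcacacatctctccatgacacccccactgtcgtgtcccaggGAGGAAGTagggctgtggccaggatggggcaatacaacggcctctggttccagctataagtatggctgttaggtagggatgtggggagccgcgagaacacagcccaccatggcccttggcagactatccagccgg
Prtn3: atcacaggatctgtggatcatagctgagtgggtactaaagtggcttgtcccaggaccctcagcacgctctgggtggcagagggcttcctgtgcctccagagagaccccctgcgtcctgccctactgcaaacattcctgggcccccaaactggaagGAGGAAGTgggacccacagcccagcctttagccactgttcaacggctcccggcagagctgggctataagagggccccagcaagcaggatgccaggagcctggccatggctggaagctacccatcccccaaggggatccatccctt

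The Mpo, Elane and Prtn3 windows each held 1 PU.1 and ETS match, starting 224, 85 and 95 bases before the RefSeq gene start. Gene coordinates given below are from another annotation, GENCODE M21, whose starts for Mpo, Elane and Prtn3 differ from those of RefSeq. By GENCODE the Prtn3 window lies wholly inside the gene. The Ctsg window held 1 RUNX match on the opposite strand, 79 bases before the start, and no match to the other motifs. The window of Ms4a3, also searched and not shown, held 1 C/EBP match, starting 41 bases after the RefSeq start. Over 32851 mouse promoter windows of 300 bases, 16.8% held the RUNX letters, 3.2% the PU.1 and ETS letters and 10.8% the C/EBP letters. A match is a run of letters and not a measured binding site.

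Mpo (chromosome 11, 87793581 to 87804413), the myeloperoxidase gene, stood at 460.0, 523 and 412 CPM in the AML1-ETO LT-HSCs, at 136, 44.2, 31.99 and 80.4 CPM in control LT-HSCs and, in control GMPs, at 18213, 17671, 17536 and 19674 CPM. All 3 AML1-ETO LT-HSC libraries lay above all 4 control LT-HSC libraries and far under every control GMP library, at 2.54% of the control GMP mean. The log2 fold change against control GMPs was -5.30 ± 0.48 (edgeR adjusted p = 2.58e-06). In bulk RNA, fewer cells that express a gene and less RNA per cell cannot be told apart.

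Ctsg (chromosome 14, 56099881 to 56102574), the cathepsin G gene, was the closest to the GMP level among the granule serine proteases. Its levels were 239, 378 and 252 CPM in the AML1-ETO LT-HSCs, with 10.7, 3.14, 0 and 14.8 CPM in control LT-HSCs and 2308, 1815, 2202 and 2194 CPM in control GMPs. The AML1-ETO LT-HSC mean was 13.6% of the control GMP mean, with no overlap with either control group, and the log2 fold change against control GMPs was -2.88 ± 0.80 (edgeR adjusted p = 0.0127). That call was lost without AML1-ETO LT-HSC replicate 1 (adjusted p = 0.0594) and without replicate 3 (0.0564).

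Elane and Prtn3, the neighbouring genes of neutrophil elastase and proteinase 3 on chromosome 10, went the opposite way. Elane (79886247 to 79888215) had 0 counts in all 3 AML1-ETO LT-HSC libraries, against 44.8, 12.8, 0 and 36.9 CPM in control LT-HSCs and 5422, 4448, 5188 and 5468 CPM in control GMPs. Taken against a floor of 3 counts over the group, AML1-ETO LT-HSCs were at least 78889-fold lower than control GMPs. Prtn3 (79874476 to 79883174) stood at 18.04, 8.68 and 14.4 CPM in the AML1-ETO LT-HSCs, with 118, 76.9, 19.5 and 48.1 CPM in control LT-HSCs and 4188, 3242, 4176 and 3777 CPM in control GMPs (-8.13 ± 0.60 against control GMPs, edgeR adjusted p = 8.87e-07). Both genes were also called lower in AML1-ETO LT-HSCs than in control LT-HSCs, while Mpo and Ctsg were called higher, in a contrast that called 10.4% of genes higher and 9.29% lower. For Prtn3 every AML1-ETO LT-HSC library lay under every control LT-HSC library; for Elane 1 control LT-HSC library was also at 0.

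**Figure D2:**
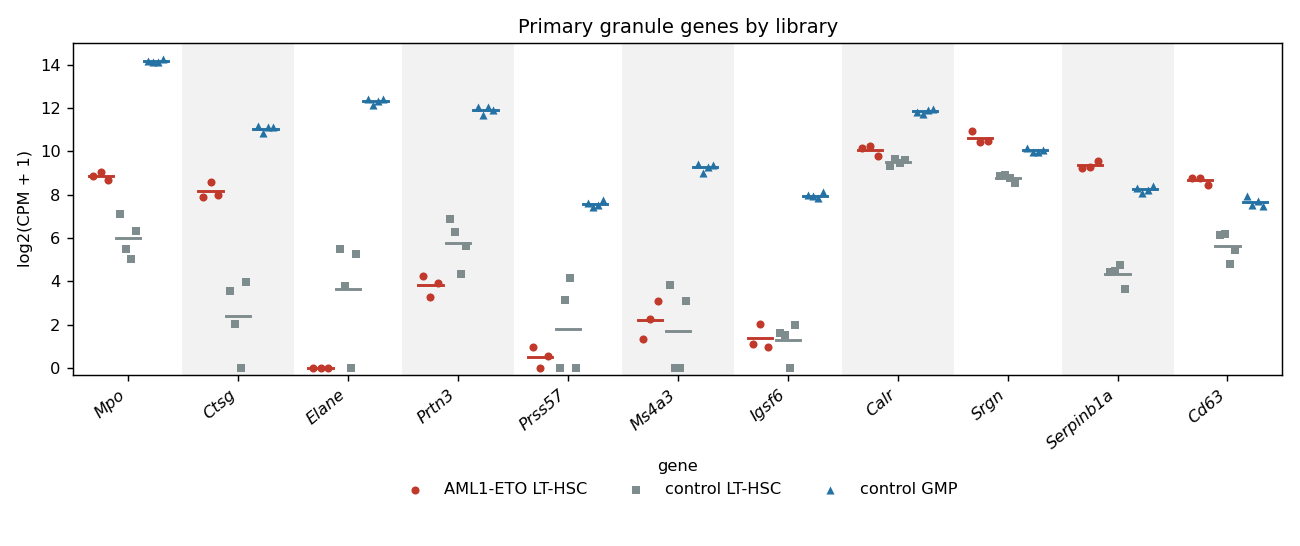
Levels of 11 primary granule genes in each library, as log2(CPM + 1), in AML1-ETO LT-HSCs (red circles), control LT-HSCs (grey squares) and control GMPs (blue triangles), with lines at the group means of the plotted values. Elane lies at 0 in all 3 AML1-ETO LT-HSC libraries, while Srgn, Serpinb1a and Cd63 lie above control GMPs.

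Of the 20 primary granule genes listed, all 20 were tested, 14 were lower and 3 higher in AML1-ETO LT-HSCs than in control GMPs, with a median log2 fold change of -2.46 beside 0.00 over all genes. In control LT-HSCs 17 of the 20 were lower than in control GMPs and none was higher, with a median of -3.78. The list took 0.525, 0.505 and 0.481% of the counts of the AML1-ETO LT-HSC libraries, 0.168 to 0.210% in control LT-HSCs and 3.39 to 3.85% in control GMPs. Prss57, the gene of another neutrophil serine protease, was at 0.956, 0 and 0.489 CPM in the AML1-ETO LT-HSCs, while control GMPs had 195, 169.6, 185 and 218 CPM. Ms4a3, a membrane protein gene used to mark descendants of GMPs in mice, was at 1.55, 3.76 and 7.46 CPM against 689, 508, 616 and 655 CPM, and Igsf6 at 1.19, 3.15 and 0.978 CPM against 249, 242, 226 and 276 CPM. All 3 were under 1% of the control GMP mean in AML1-ETO LT-HSCs, with log2 fold changes of -8.54, -7.18 and -7.16. The other members called lower were Mgst1, Hexa, Lyz2, Nkg7, Fcnb, Gstm1 and Calr, with log2 fold changes from -6.36 to -1.15.

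Some granule genes that encode no enzyme were above the control GMP level. Srgn, the proteoglycan core that holds granule proteins, stood at 1968, 1385 and 1409 CPM in the AML1-ETO LT-HSCs, with 469, 484, 435 and 371 CPM in control LT-HSCs and 1121, 1007, 1013 and 1081 CPM in control GMPs. Serpinb1a, an inhibitor of neutrophil serine proteases, stood at 601, 614 and 745 CPM, against 20.5, 21.5, 25.9 and 11.5 CPM in control LT-HSCs and 318, 269, 300.0 and 339 CPM in control GMPs. Cd63, a granule membrane tetraspanin, was at 442, 428 and 352 CPM in the AML1-ETO LT-HSCs, while control GMPs had 245, 185, 205 and 177 CPM. None of the 3 genes overlapped between AML1-ETO LT-HSCs and control GMPs, a state shared by 62.4% of all genes. Against control GMPs their log2 fold changes were 0.59 ± 0.18, 1.09 ± 0.31 and 1.004 ± 0.29 (edgeR adjusted p = 0.0194, 0.0139 and 0.0153), and each call depended on single libraries. The call of Srgn was lost without AML1-ETO LT-HSC replicate 1 or control GMP replicate 2 or 3, that of Serpinb1a without AML1-ETO LT-HSC replicate 3 and that of Cd63 without AML1-ETO LT-HSC replicate 1 or 2. Mast cells also make Srgn, Cd63 and Ctsg. The mast cell and basophil list took 0.988 to 1.28% of the counts of AML1-ETO LT-HSCs, 0.0251 to 0.0463% in control LT-HSCs and 0.0831 to 0.107% in control GMPs, and its part in these values was not tested. Cst7, an inhibitor of cysteine proteases, was at 167, 220.0 and 161 CPM in the AML1-ETO LT-HSCs, with 2.04, 7.23, 0 and 10.9 CPM in control LT-HSCs and 249.9, 208, 245 and 225 CPM in control GMPs. It was not called against control GMPs (log2 fold change -0.35, 95% interval -1.79 to 1.10). Ctsc, whose protease activates the others, was not called either.

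The transcription factors that define the GMP split into genes far under the GMP level and genes that were not. Cebpa, the gene of C/EBPα, without which GMPs do not form in mice, stood at 16.3, 3.38 and 4.04 CPM in the AML1-ETO LT-HSCs, with 2.92, 2.52, 3.47 and 24.7 CPM in control LT-HSCs and 335, 348, 421 and 402 CPM in control GMPs. The AML1-ETO LT-HSC and control LT-HSC libraries overlapped, and AML1-ETO LT-HSCs reached 2.10% of the control GMP mean (-5.56 ± 0.91, edgeR adjusted p = 0.000302). Cebpe, which acts later in granulocytes, was at 1.79, 1.23 and 2.63 CPM against 118, 95.7, 93.5 and 107 CPM in control GMPs (-5.76 ± 0.43, adjusted p = 3.22e-06) and at 0 in all 4 control LT-HSC libraries. Spi1, the gene of PU.1, stood at 78.2, 72.3 and 44.5 CPM in the AML1-ETO LT-HSCs, within the control LT-HSC range of 32.5 to 67.8 CPM for 1 library and above it for the other 2, against 291, 281, 291 and 285 CPM in control GMPs (-2.14 ± 0.34, adjusted p = 0.000236). Irf8, which directs monocytes and dendritic cells, was at 12.3, 9.37 and 15.1 CPM against 409, 457, 520.3 and 422 CPM in control GMPs (-5.20 ± 0.85, adjusted p = 0.000316), and all 3 values lay under the lowest control LT-HSC value of 16.1 CPM. Myc was at 171, 201 and 254 CPM against 404, 434, 462 and 492 CPM, also lower (-1.10 ± 0.20, adjusted p = 0.000657).

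Gfi1 and Myb were not under the GMP level. Gfi1, a repressor needed for neutrophil development, stood at 277, 402 and 409 CPM in the AML1-ETO LT-HSCs, with 80.7, 74.95, 5.84 and 45.5 CPM in control LT-HSCs and 212, 189, 207 and 247 CPM in control GMPs. Every AML1-ETO LT-HSC library lay above every control library of both kinds. The log2 fold change against control GMPs was 0.76 (95% interval -0.42 to 1.94, edgeR adjusted p = 0.345), and in the fit of the 7 compared libraries it was 0.80 ± 0.15 (adjusted p = 0.001). Myb, needed for adult haematopoiesis, stood at 904, 985 and 945 CPM in the AML1-ETO LT-HSCs, with 531, 541, 688 and 619.8 CPM in control LT-HSCs and 933, 962, 1005 and 1079.8 CPM in control GMPs. The AML1-ETO LT-HSC and control GMP values overlapped, and the interval of their log2 difference ran from -0.43 to 0.28. Cebpb stood at 128, 83.9 and 44.5 CPM against 45.6, 45.98, 64.7 and 48.8 CPM in control GMPs and was not called (95% interval -0.34 to 1.81).

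Of 26 myeloid transcription factor genes, 8 were lower and 6 higher than in control GMPs, with a median log2 fold change of -0.01, while in control LT-HSCs 12 were lower and 3 higher, with a median of -0.36. For 6 of the 26 (Myb, Zeb2, Nfe2, Runx3, Cbfb and Bcl11a) the whole 95% interval lay within 1 of 0 on the log2 scale, which held for 17.2% of all genes. The members called lower besides those above were Cebpd, Tfec and Zbtb16, the last of them not without any single AML1-ETO LT-HSC library. Those called higher were Klf4, Id2, Runx2, Etv6 (not without AML1-ETO LT-HSC replicate 2), Satb1 and Rara, with log2 fold changes from 0.77 to 3.84, and the fit of the 7 compared libraries called 11 higher. Id2, a partner that keeps E proteins from DNA, was at 80.4, 84.2 and 42.6 CPM against 6.58, 5.12, 3.90 and 3.67 CPM in control GMPs. Runx2, of the same family as the fused gene, was at 278, 291 and 190.2 CPM against 89.5, 101, 80.1 and 99.5 CPM.

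**Figure D3:**
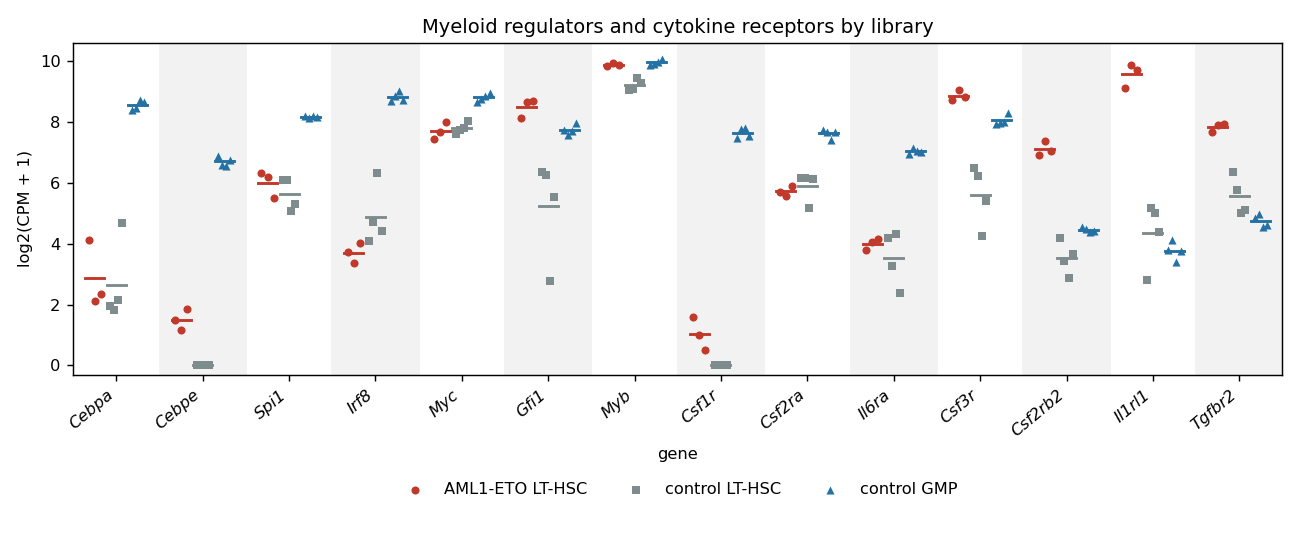
Levels of 7 transcription factor genes and 7 cytokine receptor genes in each library, as log2(CPM + 1), in AML1-ETO LT-HSCs (red circles), control LT-HSCs (grey squares) and control GMPs (blue triangles), with lines at the group means of the plotted values. Cebpa, Spi1 and Il6ra of AML1-ETO LT-HSCs lie near control LT-HSCs and Irf8 lies under them. Gfi1, Csf3r, Csf2rb2, Il1rl1 and Tgfbr2 lie above both control groups.

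The receptors for myeloid cytokines were divided in the same way. Csf1r, the receptor of macrophage colony-stimulating factor, was at 2.03, 0.998 and 0.428 CPM in the AML1-ETO LT-HSCs, at 0 counts in all control LT-HSCs and, in control GMPs, at 178, 219, 219.9 and 187 CPM (-7.43 ± 0.62 against control GMPs, edgeR adjusted p = 6.71e-06). Csf2ra, the ligand-specific chain of the receptor of granulocyte-macrophage colony-stimulating factor, stood at 51.01, 46.7 and 58.2 CPM against 213, 204, 168 and 204 CPM in control GMPs (-1.92 ± 0.24, adjusted p = 3.44e-05). Il6ra, the ligand-binding chain of the interleukin 6 receptor, was at 13.02, 15.7 and 16.7 CPM against 122, 141, 132 and 128 CPM (-3.11 ± 0.44, adjusted p = 8.72e-05). The receptors for interferon gamma and tumour necrosis factor, Ifngr1, Ifngr2 and Tnfrsf1a, and the interleukin 6 signalling chain Il6st were also called lower, Il6st no longer when any 1 of the 7 compared libraries was left out (adjusted p = 0.0553 to 0.114).

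Csf3r, which encodes the G-CSF receptor, stood at 422, 526 and 446 CPM in the AML1-ETO LT-HSCs, with 89.6, 73.8, 18.03 and 41.4 CPM in control LT-HSCs and 243, 248, 257 and 315 CPM in control GMPs. All 3 AML1-ETO LT-HSC values lay above all control values, with a log2 fold change of 0.81 against control GMPs (95% interval -0.05 to 1.66, edgeR adjusted p = 0.15; 0.84 ± 0.12 and 0.000187 with the 7 compared libraries). Csf2rb2, a mouse signalling chain specific to interleukin 3, was at 118, 163 and 131 CPM against 22.4, 21.4, 20.1 and 20.5 CPM in control GMPs (2.70 ± 0.29, adjusted p = 8.98e-06). It is a near copy of Csf2rb, with which it may share reads, and Csf2rb stood at 354, 354 and 293 CPM against 172, 165, 174 and 179.8 CPM (log2 fold change 0.95, 95% interval -0.25 to 2.15, adjusted p = 0.233; 1.2e-05 with 7 libraries). Il1rl1, the interleukin 33 receptor of mast cells, was at 554, 938 and 834 CPM against 12.9, 16.5, 9.48 and 12.6 CPM (5.91 ± 0.57, adjusted p = 4.09e-06). Tgfbr2, a receptor of transforming growth factor beta, stood at 204, 237 and 245 CPM in the AML1-ETO LT-HSCs, with 80.6, 53.2, 31.5 and 33.2 CPM in control LT-HSCs and 27.9, 30.8, 22.3 and 23.4 CPM in control GMPs (3.13 ± 0.28, adjusted p = 2.72e-06). Of 26 receptor genes, 8 were called higher and 7 lower, with a median log2 fold change of 0.46, while in control LT-HSCs 5 were higher and 12 lower with a median of -0.98. The fit of the 7 compared libraries called 14 higher.

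Among the surface proteins by which LT-HSCs and GMPs are usually sorted, AML1-ETO LT-HSCs carried RNA of both gates. Which of them were used for the sort is not stated, so their differences may have been set by it. Ly6a, the Sca-1 gene, stood at 241, 323 and 332 CPM in the AML1-ETO LT-HSCs, with 66.1, 217, 45.1 and 51.5 CPM in control LT-HSCs and 1.34, 1.08, 0.779 and 0.116 CPM in control GMPs. Slamf1, the CD150 gene, was at 50.3, 31.1 and 76.2 CPM against 0, 0.269, 0.649 and 0.175 CPM in control GMPs. For both genes AML1-ETO LT-HSCs were far above control GMPs in every library, with log2 fold changes of 8.47 ± 0.84 and 7.60 ± 1.12. Kit, present in both gates, was at 819, 1019.9 and 913 CPM against 333, 348, 315 and 364 CPM (1.43 ± 0.16, edgeR adjusted p = 1.35e-05).

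Cd34, which marks GMPs and is largely missing from mouse LT-HSCs, stood at 586, 437 and 423 CPM in the AML1-ETO LT-HSCs, with 47.97, 59.5, 39.3 and 29.99 CPM in control LT-HSCs and 341, 405, 418 and 378 CPM in control GMPs. The AML1-ETO LT-HSC libraries lay above every control GMP library, by a log2 fold change of 0.32 (95% interval -0.18 to 0.82) that was not called (edgeR adjusted p = 0.344; 0.0331 with the 7 compared libraries). Fcgr3, an Fc receptor of the GMP gate, was at 67.8, 88.4 and 74.9 CPM in the AML1-ETO LT-HSCs, with 2.80, 0.546, 0 and 0 CPM in control LT-HSCs and 176, 170.4, 174 and 202 CPM in control GMPs (log2 fold change -1.23, 95% interval -2.53 to 0.07, adjusted p = 0.15; 1.37e-05 with 7 libraries). Cd48, absent from the usual LT-HSC gate, stood at 181, 256 and 204 CPM in the AML1-ETO LT-HSCs, with 7.06, 12.5, 0 and 0 CPM in control LT-HSCs and 81.9, 80.3, 92.1 and 80.8 CPM in control GMPs (95% interval -0.51 to 3.21, adjusted p = 0.278; 8.31e-06 with 7 libraries). For Cd34, Fcgr3 and Cd48 alike, all 3 AML1-ETO LT-HSC libraries lay above all 4 control LT-HSC libraries. Of the 13 genes of these gates, 6 were called higher and Fcgr2b lower than in control GMPs, and 11 were called higher with the 7 compared libraries.

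Of 50 genes of LT-HSC identity, all tested, 27 were higher in AML1-ETO LT-HSCs than in control GMPs and 1, Ifitm1, was lower, with a median log2 fold change of 2.76. Control LT-HSCs were higher than control GMPs for 39 and lower for 1, with a median of 4.66. The list took 0.477 to 0.663% of the counts of AML1-ETO LT-HSCs, 0.387 to 0.865% in control LT-HSCs and 0.107 to 0.124% in control GMPs. Limma-voom called 17 higher.

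Hlf, Meis1, Gata2, Myct1 and Fgd5 were called higher than in control GMPs. Hlf, a transcription factor of stem cells, was at 228, 277 and 182 CPM in the AML1-ETO LT-HSCs, with 296, 259, 46.6 and 158 CPM in control LT-HSCs and 7.92, 9.80, 7.08 and 9.54 CPM in control GMPs (4.73 ± 0.48 against control GMPs, edgeR adjusted p = 6.71e-06). Meis1, a homeobox cofactor, stood at 266, 150.0 and 246 CPM, against 297, 177, 161 and 156 CPM in control LT-HSCs and 20.8, 24.2, 20.4 and 19.5 CPM in control GMPs. Gata2, a transcription factor of stem and mast cells, was at 852, 852 and 948 CPM, against 656, 499, 374 and 543 CPM in control LT-HSCs and 109, 177, 137 and 109 CPM in control GMPs. Against control GMPs the log2 fold changes of Meis1 and Gata2 were 3.38 ± 0.65 and 2.73 ± 0.34, with no overlap for either, as for 62.4% of all genes. Myct1 stood at 178, 131 and 157 CPM, against 149.5, 119, 25.3 and 119.5 CPM in control LT-HSCs and 4.23, 5.92, 4.81 and 4.13 CPM in control GMPs (5.02 ± 0.59). Fgd5, a guanine nucleotide exchange factor used as a stem cell marker in mice, was at 52.1, 64.04 and 47.1 CPM, against 86.8, 40.99, 34.9 and 22.7 CPM in control LT-HSCs and 0.0535, 0.215, 0.195 and 0 CPM in control GMPs (8.79 ± 0.67).

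For Mycn, Mecom, Ifitm1 and Hoxa9 every AML1-ETO LT-HSC library lay under every control LT-HSC library. Mycn, a relative of Myc, stood at 0, 0 and 1.65 CPM in the AML1-ETO LT-HSCs, with 87.4, 86.7, 81.2 and 102 CPM in control LT-HSCs and 0.482, 0.754, 1.04 and 1.51 CPM in control GMPs. Its difference from control GMPs was not called (95% interval of the log2 fold change -3.60 to 2.14), and the interval is wide at these levels. Mecom, the EVI1 gene, was at 11.6, 4.07 and 16.6 CPM in the AML1-ETO LT-HSCs, with 176, 101, 41.9 and 117 CPM in control LT-HSCs and 1.61, 2.32, 0.584 and 1.63 CPM in control GMPs (2.80 ± 0.91, edgeR adjusted p = 0.03), a call not made without AML1-ETO LT-HSC replicate 1 or 3 or control GMP replicate 1, 3 or 4 (adjusted p = 0.0658 to 0.116), nor by limma-voom (0.281). Ifitm1, a membrane protein gene, was at 2.75, 3.69 and 1.41 CPM in the AML1-ETO LT-HSCs, with 176, 166, 33.2 and 83.1 CPM in control LT-HSCs and 42.9, 36.7, 65.00 and 41.3 CPM in control GMPs, under both control groups (-4.16 ± 0.77, adjusted p = 0.000851, and 0.139 by limma-voom). Hoxa9 stood at 12.1, 4.84 and 11.4 CPM against 129, 104, 33.96 and 35.02 CPM in control LT-HSCs and 39.1, 35.1, 46.6 and 36.7 CPM in control GMPs (95% interval against control GMPs -3.90 to -0.21; adjusted p = 0.0867, and 0.000174 with 7 libraries). Among 20 HOX and partner genes 4 were called higher than in control GMPs, the cofactors Meis1, Pbx2 and Pbx4 among them, and no HOX gene was called. The 4 made up 20% of the list, beside 13.8% called higher over all genes.

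**Figure D4:**
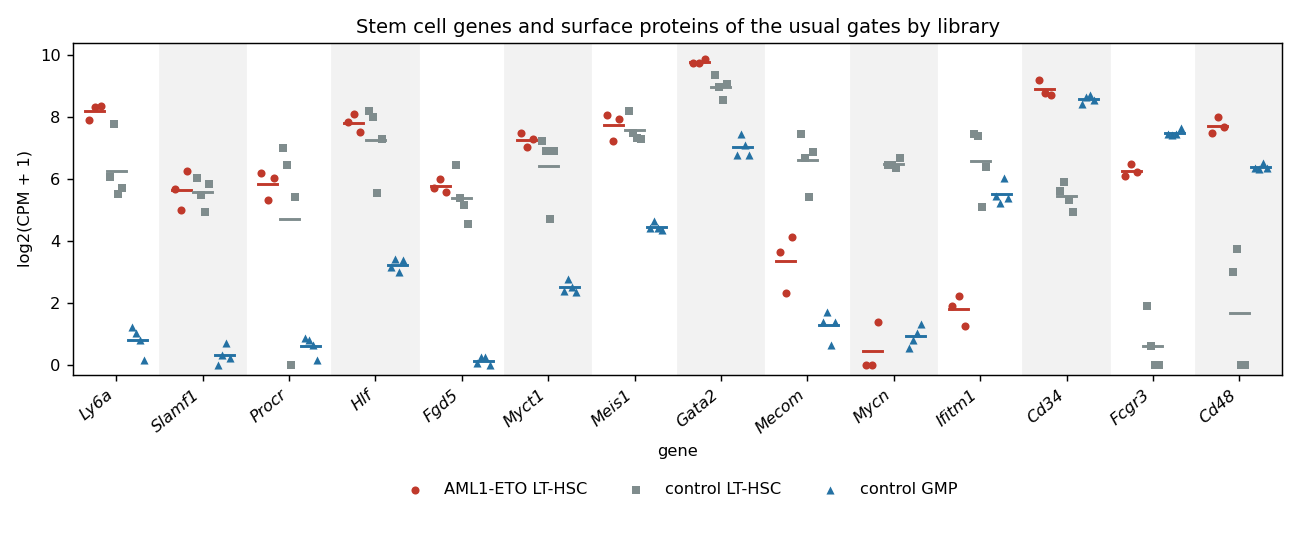
Levels of 11 stem cell genes and of Cd34, Fcgr3 and Cd48 in each library, as log2(CPM + 1), in AML1-ETO LT-HSCs (red circles), control LT-HSCs (grey squares) and control GMPs (blue triangles), with lines at the group means of the plotted values. Hlf, Fgd5 and Meis1 of AML1-ETO LT-HSCs lie near control LT-HSCs, Mycn and Ifitm1 lie under them, and Cd34, Fcgr3 and Cd48 lie nearer control GMPs than control LT-HSCs.

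AML1-ETO LT-HSCs carried RNA of mast cell genes beyond the level of both control groups. Cpa3 (chromosome 3, 20215620 to 20242181), mast cell carboxypeptidase A3, stood at 6929, 9413 and 7926 CPM in the AML1-ETO LT-HSCs, with 5.25, 17.9, 34.7 and 18.5 CPM in control LT-HSCs and 101, 124, 99.4 and 86.5 CPM in control GMPs. Every AML1-ETO LT-HSC library lay above every control library, with a log2 fold change of 6.30 ± 0.52 against control GMPs (edgeR adjusted p = 1.53e-06). Cma1, a mast cell chymase, was at 642, 607 and 506 CPM against 0.214, 0.592, 0.260 and 0.524 CPM in control GMPs (10.49 ± 1.08), Slc18a2, which loads histamine and other amines into vesicles, at 1015, 949.6 and 1025 CPM against 34.2, 42.8, 29.9 and 31.02 CPM (4.85 ± 0.37), and Mitf, a transcription factor of mast cells, at 139, 242 and 106 CPM against 11.9, 14.3, 12.3 and 11.99 CPM (3.68 ± 0.74). Cma1 belongs to a family of similar proteases that may share reads.

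Genes known from basophils differed from each other. Mcpt8, the basophil protease of mice, stood at 51.01, 82.5 and 85.7 CPM in the AML1-ETO LT-HSCs, while control GMPs had 78.7, 76.5, 67.2 and 43.5 CPM, overlapping values that were not called (95% interval -0.83 to 1.10). Prss34, another basophil protease, was at 0, 0.0768 and 1.04 CPM against 114, 110.4, 124 and 51.8 CPM (-7.99 ± 1.13, edgeR adjusted p = 0.000251, and 0.166 by limma-voom). Fcer1a, a chain of the IgE receptor that both cell types carry, was at 52.4, 23.4 and 47.4 CPM against 15.9, 10.5, 12.3 and 9.37 CPM, above control GMPs in every library, and was not called (adjusted p = 0.0816; 0.000326 with 7 libraries). Cd200r3, a receptor of basophils and mast cells, was at 24.7, 40.2 and 27.1 CPM against 1.499, 1.62, 2.47 and 0.815 CPM and was called higher (4.26 ± 1.28, adjusted p = 0.0203), not without AML1-ETO LT-HSC replicate 2 (0.075) or control GMP replicate 1, 2 or 4. Of 27 mast cell and basophil genes 22 were tested, and 10 were higher and 3 lower than in control GMPs, with a median log2 fold change of 2.62. With the 7 compared libraries 16 were higher. The 3 lower genes were Prss34, Fcer1g and Gzmb, and without AML1-ETO LT-HSC replicate 2 only Prss34 was lower (Fcer1g 0.0611 and Gzmb 0.126). The call of Gzmb was also lost without any 1 of the other compared libraries. The list took 0.988, 1.28 and 1.17% of the counts in AML1-ETO LT-HSCs, 0.0251 to 0.0463% in control LT-HSCs and 0.0831 to 0.107% in control GMPs. The mast cell genes Mcpt1 and Rgs13 had 0 counts in all 3 groups.

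Several genes of monocytes, eosinophils and neutrophils, the branches after the GMP, were at or near 0 in AML1-ETO LT-HSCs where control GMPs had them. Ly6c2, a surface protein gene of monocytes and their progenitors, stood at 2.75, 0.0768 and 1.77 CPM in the AML1-ETO LT-HSCs, with 90.9, 257, 36.3 and 139 CPM in control LT-HSCs and 1039, 919.6, 1057 and 1019.8 CPM in control GMPs (-9.31 ± 0.97, edgeR adjusted p = 7.89e-06). Clec12a, a lectin of myeloid cells, was at 0.597, 0 and 0 CPM against 496, 431, 442 and 439 CPM in control GMPs (-10.99 ± 1.44), and F13a1, a coagulation factor made by monocytes, at 0, 0.307 and 1.59 CPM against 559, 579, 734 and 604 CPM (-9.89 ± 1.43). For all 3 genes every control LT-HSC library was also under every control GMP library. Of 22 monocyte and dendritic cell genes tested, of 24 listed, 13 were lower and 5 higher, with a median log2 fold change of -3.07. The 5 were Klf4 and the MHC class II genes Cd74, H2-Aa, H2-Ab1 and H2-Eb1, and Cd74 was at 176, 25.5 and 105 CPM in the AML1-ETO LT-HSCs, with 681, 1404, 172 and 524 CPM in control LT-HSCs and 16.4, 14.3, 5.97 and 3.26 CPM in control GMPs. The count of higher genes was 3 without AML1-ETO LT-HSC replicate 1, and 1 by limma-voom. Of 10 genes of MHC class II and antigen presentation, 5 were higher and none lower than in control GMPs, with a median of 2.40. The 5 became 3 without AML1-ETO LT-HSC replicate 1, 2 by limma-voom and 8, with 1 lower, in the fit of the 7 compared libraries. The call of H2-Ab1 was lost without AML1-ETO LT-HSC replicate 1 or 3, any 1 control GMP library, control LT-HSC replicate 1 or 4 or AML1-ETO GMP replicate 3.

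Among eosinophil genes, Epx, eosinophil peroxidase, had 0 counts in all AML1-ETO LT-HSC and control LT-HSC libraries, against 709, 426, 307 and 332 CPM in control GMPs, at least 6821-fold lower. Prg2, the major basic protein, was at 1.25, 0.614 and 0 CPM in the AML1-ETO LT-HSCs, with 23.3, 87.02, 4.72 and 17.4 CPM in control LT-HSCs and 1725, 882, 893 and 638 CPM in control GMPs (-10.67 ± 1.22, edgeR adjusted p = 1.6e-05). Of 11 eosinophil genes 7 were lower and none higher. Of 18 neutrophil secondary and tertiary granule genes tested, of 19 listed, 7 were lower and none higher, with a median of -2.69, or -1.41 with genes at 0 in a group set at their bound. Cybb, the catalytic chain of the phagocyte oxidase, was at 1.31, 0.230 and 1.35 CPM against 83.1, 68.4, 61.2 and 65.9 CPM in control GMPs (-6.13 ± 0.76), and Hp, haptoglobin, at 4.84, 0.307 and 0 CPM against 328, 261, 326 and 343 CPM. Ltf, Camp and Ngp, which neutrophils make later, were under 13 CPM in both groups and were not called.

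Of 20 megakaryocyte and platelet genes tested 12 were higher and none lower in AML1-ETO LT-HSCs than in control GMPs, with a median log2 fold change of 3.35, while control LT-HSCs had 11 higher and none lower, with a median of 2.68. Treml1, a platelet granule receptor, stood at 106, 53.2 and 201 CPM in the AML1-ETO LT-HSCs, with 8.75, 3.61, 10.2 and 20.9 CPM in control LT-HSCs and 0.375, 0.538, 0.714 and 0.873 CPM in control GMPs, so that every AML1-ETO LT-HSC library lay above both control groups. Pf4, the platelet factor 4 gene, was at 1.08, 2.92 and 12.3 CPM against 45.6, 30.96, 126 and 134 CPM in control LT-HSCs and 1.12, 7.48, 7.08 and 6.81 CPM in control GMPs and was not called. Of 26 erythroid genes 11 were higher and 1, the transferrin receptor Tfrc, lower than in control GMPs, against 20 and none in control LT-HSCs, and by limma-voom 3 were higher. Without AML1-ETO LT-HSC replicate 1, 2 were lower. Erythroid genes took 0.0777 to 0.111% of the counts in AML1-ETO LT-HSCs, 0.183 to 0.401% in control LT-HSCs and 0.0384 to 0.0441% in control GMPs. The part of erythroid cells in these values was not tested. Gata1, the erythroid and megakaryocyte transcription factor, was at 53.5, 35.8 and 78.2 CPM in the AML1-ETO LT-HSCs, while control GMPs had 6.96, 8.40, 6.95 and 6.34 CPM (2.96 ± 0.64, edgeR adjusted p = 0.00262). Klf1 stood at 5.85, 2.69 and 5.87 CPM in the AML1-ETO LT-HSCs, with 44.3, 122, 62.3 and 112 CPM in control LT-HSCs and 3.43, 3.28, 3.18 and 3.08 CPM in control GMPs and was not called against control GMPs.

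Of 22 B and plasma cell genes 8 were higher and 1, Igll1, lower than in control GMPs, and the 8 came down to 4 without AML1-ETO LT-HSC replicate 2, to 4 or 5 without control GMP replicate 1, 3 or 4 or control LT-HSC replicate 2, and to 2 by limma-voom. The call of Igll1 was lost without any single AML1-ETO LT-HSC library, without control GMP replicate 1, 2 or 4 and by limma-voom (adjusted p = 0.0517 to 0.0975). Dntt, the terminal transferase of early lymphoid cells, was at 243, 280.3 and 183 CPM in the AML1-ETO LT-HSCs, with 55.1, 49.99, 207 and 42.02 CPM in control LT-HSCs and 6.16, 7.05, 5.20 and 5.06 CPM in control GMPs (5.32 ± 0.68, edgeR adjusted p = 3.93e-05). Of 16 T and NK cell genes tested, of 20 listed, 7 were higher and Nkg7, which the primary granule list also holds, was lower, and the 7 fell to 3 when any 1 of the AML1-ETO LT-HSC or control GMP libraries was left out and with the 7 compared libraries, and to 4 with no filter on low counts. Their median was 6.14, or 3.66 with genes at 0 set at their bound. The list took 0.00999 to 0.0138% of the counts in AML1-ETO LT-HSCs and 0.0270 to 0.0311% in control GMPs, so its summed level went the other way. Gata3 was at 18.6, 50.2 and 41.3 CPM against 0.0535, 0.215, 0.130 and 0.116 CPM in control GMPs, and Prf1, the perforin gene, at 59.3, 24.03 and 8.56 CPM against 0.107, 0.162, 0.130 and 0.175 CPM and 0 in all control LT-HSC libraries. Of 10 endothelial and stromal genes Pecam1 and Pdgfrb were higher and Vcam1 lower, Pdgfrb not without any 1 of the 7 compared libraries and Vcam1 not without AML1-ETO LT-HSC replicate 1 or 2 nor by limma-voom. The count of higher genes was 4 without control LT-HSC replicate 3 and with the 7 compared libraries. In the main fit 30% of the list was called in either direction, beside 31.1% of all genes.

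**Figure D5:**
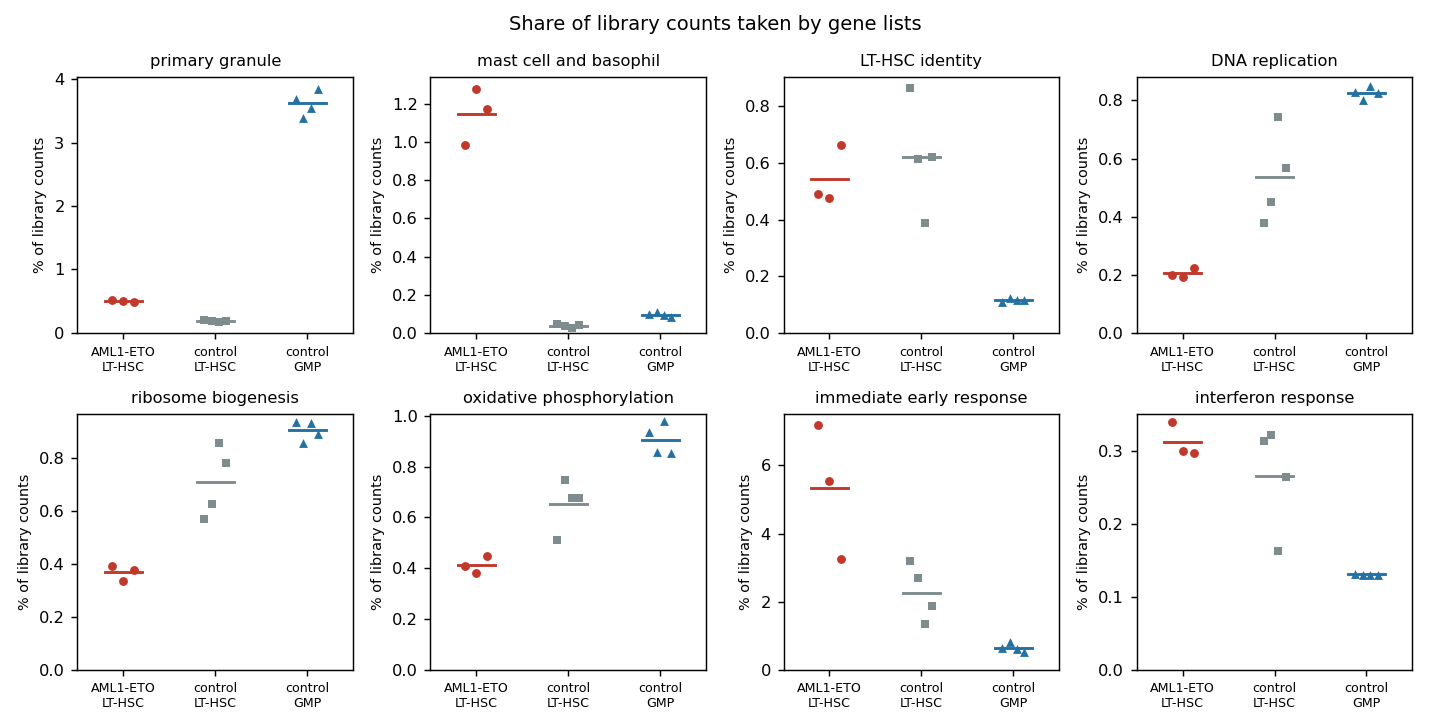
Share of each library's counts taken by 8 gene lists, in %, in AML1-ETO LT-HSCs (red circles), control LT-HSCs (grey squares) and control GMPs (blue triangles), 1 point per library, with lines at the group means. The primary granule list lies at 0.481 to 0.525% in AML1-ETO LT-HSCs and at 3.39 to 3.85% in control GMPs, and the DNA replication list of AML1-ETO LT-HSCs lies under both control groups.

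Genes of the cell cycle were lower in AML1-ETO LT-HSCs than in control GMPs almost without exception. Of 45 DNA replication genes 40 were lower and none higher, with a median log2 fold change of -2.59, and of 40 mitosis genes 38 were lower and none higher, with a median of -3.08. In some alternatives 1 replication gene was called higher. These were DESeq2, its size factors or upper-quartile factors in edgeR, the filter of 5 CPM in 3 libraries and the 7 compared libraries. The same was seen without control LT-HSC replicate 2 or 3. Control LT-HSCs were lower than control GMPs for 27 of the 45 and 15 of the 40, with medians of -0.68 and -0.90. Mcm2, a subunit of the replicative helicase, stood at 82.1, 77.3 and 99.1 CPM in the AML1-ETO LT-HSCs, with 206, 271, 423 and 367 CPM in control LT-HSCs and 481, 486, 533 and 491 CPM in control GMPs (-2.53 ± 0.22 against control GMPs, edgeR adjusted p = 1.94e-06). Mki67, the Ki-67 gene of dividing cells, was at 67.1, 65.04 and 116 CPM, against 253, 174, 835 and 574 CPM in control LT-HSCs and 525, 577, 469 and 607 CPM in control GMPs (-2.72 ± 0.45, adjusted p = 0.000315). For both genes all AML1-ETO LT-HSC libraries lay under all libraries of both control groups. In control LT-HSC replicate 3 Mki67 lay above every control GMP library. The mitosis list took 0.0780 to 0.121% of the counts in AML1-ETO LT-HSCs, 0.216 to 0.455% in control LT-HSCs and 0.455 to 0.523% in control GMPs. Control LT-HSC replicates 3 and 4 held 0.455 and 0.426%, near control GMPs, and the part of dividing cells in them was not tested. The replication list took 0.192 to 0.222% of the counts in AML1-ETO LT-HSCs, 0.379 to 0.744% in control LT-HSCs and 0.801 to 0.848% in control GMPs.

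Cdc45 and Pole, which start and copy DNA, had log2 fold changes of -4.23 ± 0.35 and -3.06 ± 0.23. Aurkb and Nuf2, of the mitotic kinase and kinetochore machinery, had -4.07 ± 0.39 and -3.80 ± 0.28. The replication clamp gene Pcna was not called, at 479.9, 273 and 153 CPM in the AML1-ETO LT-HSCs, while control GMPs had 445, 414, 484 and 395 CPM, and without AML1-ETO LT-HSC replicate 1 it was lower (edgeR adjusted p = 0.00687). Regulators of the G1 phase went both ways. Cdk6, a cyclin D kinase, was at 1678, 2138 and 1806 CPM in the AML1-ETO LT-HSCs, with 314, 194, 734 and 417 CPM in control LT-HSCs and 709, 792, 593 and 714 CPM in control GMPs, above both (1.42 ± 0.34, edgeR adjusted p = 0.00516), while its relative Cdk4 was at 159, 163 and 187 CPM against 443, 401, 487 and 432 CPM (-1.38 ± 0.16). The cell cycle inhibitor Cdkn1b, p27, stood at 221, 209 and 169.7 CPM against 64.2, 83.7, 62.5 and 60.4 CPM in control GMPs (1.56 ± 0.21, adjusted p = 5.03e-05). Cdkn2d and Rbl2 were also higher, and Ccnd1, Ccnd2, Rbl1 and E2f4 lower, with the call of Ccnd2 lost without AML1-ETO LT-HSC replicate 1 or 2 or any 1 control GMP library. The call of Ccnd2 was also lost by DESeq2, with either other scaling or filter, and without control LT-HSC replicate 1, 2 or 4 or AML1-ETO GMP replicate 1. Cdkn1c, the p57 inhibitor typical of resting stem cells, was at 1.13, 0.845 and 0.367 CPM in the AML1-ETO LT-HSCs, with 15.8, 11.1, 0 and 15.2 CPM in control LT-HSCs and 0.482, 0.162, 0.390 and 0.466 CPM in control GMPs and was not called.

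Genes of the biosynthetic machinery were lower as well. Of 36 ribosome biogenesis genes 34 were lower and none higher (median log2 fold change -1.30), of 26 genes of nucleotide and serine synthesis 24 lower and none higher (-1.70), and of 56 oxidative phosphorylation genes 52 lower and none higher (-1.18). In control LT-HSCs 15, 13 and 30 of them were lower than in control GMPs, with medians of -0.50, -0.60 and -0.64. Npm1, nucleophosmin, stood at 482, 369.8 and 427 CPM in the AML1-ETO LT-HSCs, with 542, 880.1, 655 and 726 CPM in control LT-HSCs and 1236, 1063, 1284 and 1024 CPM in control GMPs (-1.43 ± 0.17, edgeR adjusted p = 2.3e-05). Phgdh, which opens serine synthesis, was at 79.5, 42.4 and 73.2 CPM against 125, 209.7, 145 and 227 CPM in control LT-HSCs and 441, 391, 450.0 and 454 CPM in control GMPs (-2.74 ± 0.30, adjusted p = 1.15e-05). In both genes the AML1-ETO LT-HSC libraries lay under all control libraries. Uqcrc1, of respiratory complex III, was at 153, 142 and 169 CPM against 393, 357, 393 and 391 CPM (-1.31 ± 0.16).

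Of 27 genes of glycolysis and the pentose phosphate pathway 18 were lower and 3 higher, with a median of -1.76. Gpi1, glucose phosphate isomerase, was at 369, 338 and 344 CPM in the AML1-ETO LT-HSCs, with 356, 438, 432 and 389 CPM in control LT-HSCs and 1269.5, 1226, 1209.8 and 1251 CPM in control GMPs (-1.82 ± 0.13, edgeR adjusted p = 8.87e-07). The 3 exceptions were Slc2a3, a glucose transporter, at 451, 386 and 358 CPM in the AML1-ETO LT-HSCs, with 162, 138, 77.6 and 75.9 CPM in control LT-HSCs and 18.3, 23.4, 23.1 and 23.04 CPM in control GMPs (4.18 ± 0.42), and the kinases Hk1 and Pfkm (1.20 ± 0.21 and 1.68 ± 0.21). Among 25 genes of protein processing in the endoplasmic reticulum, which a secretory cell needs, 19 were lower and 1, the stress factor Ddit3, higher, and the 1 became 4 without AML1-ETO LT-HSC replicate 3, 3 with the 7 compared libraries or by DESeq2 and 2 with its size factors in edgeR. P4hb, a protein disulfide isomerase, was at 371, 389 and 409 CPM against 1740.1, 1548, 1733 and 1834 CPM in control GMPs (-2.14 ± 0.19). Alas1, the first enzyme of haem synthesis, which makes the cofactor of myeloperoxidase, stood at 30.2, 29.4 and 33.9 CPM in the AML1-ETO LT-HSCs, with 29.5, 35.7, 62.9 and 36.2 CPM in control LT-HSCs and 967, 749, 913 and 930.3 CPM in control GMPs, with the 2 LT-HSC groups overlapping (-4.83 ± 0.35 against control GMPs, adjusted p = 8.24e-07). Of the 8 haem synthesis genes 4 were lower and Ppox higher.

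Fatty acid metabolism, named in the title of the study, differed gene by gene with medians near 0. Of 22 fatty acid synthesis genes 7 were lower and 4 higher than in control GMPs (median log2 fold change -0.37). Of 28 oxidation genes tested, of 30 listed, 6 were lower and 5 higher (-0.23), and of 28 genes of uptake, binding and storage 7 were lower and 3 higher (-0.10). Over all genes 17.3% were lower and 13.8% higher. In either direction 50, 39.3 and 35.7% of the 3 lists were called, beside 31.1% of all genes, so the last 2 lie near that share. The 4 higher synthesis genes came down to 2 without AML1-ETO LT-HSC replicate 3, and the 5 higher oxidation genes to 3 without replicate 1 or 2. The 3 higher genes of uptake and storage came down to 1 without AML1-ETO LT-HSC replicate 1, without control GMP replicate 4 and with the replicate number as a block. With the 7 compared libraries 6 of them were higher. Without AML1-ETO LT-HSC replicate 2, 4 in place of 7 uptake and storage genes were lower. The 95% interval lay within 1 of 0 for 5, 11 and 9 members of the 3 lists, beside 17.2% of all genes. Fasn, fatty acid synthase, stood at 185, 210.2 and 224 CPM in the AML1-ETO LT-HSCs, with 242, 125, 328 and 296 CPM in control LT-HSCs and 377, 384, 415 and 465 CPM in control GMPs, with no overlap with control GMPs (-0.99 ± 0.29, edgeR adjusted p = 0.0176), a call not made without AML1-ETO LT-HSC replicate 1 or 2 (0.0771 and 0.0598). Acaca, the carboxylase before it, was at 16.01, 17.2 and 20.4 CPM against 67.2, 71.99, 66.9 and 78.04 CPM (-1.99 ± 0.40), and the desaturase Fads2 at 2.69, 8.06 and 2.20 CPM in the AML1-ETO LT-HSCs, with 70.2, 61.99, 118 and 94.7 CPM in control LT-HSCs and 16.3, 20.5, 23.3 and 17.9 CPM in control GMPs (-2.18 ± 0.42).

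Elovl6, an elongase, was higher at 91.02, 105 and 76.8 CPM against 35.4, 30.9, 38.9 and 32.6 CPM in control GMPs (1.40 ± 0.27, edgeR adjusted p = 0.000979). Cpt1a, the gate of fatty acids into mitochondria, was at 186, 308 and 301 CPM in the AML1-ETO LT-HSCs, with 207, 176, 123 and 103 CPM in control LT-HSCs and 146, 159, 130.1 and 119 CPM in control GMPs (0.93 ± 0.24, adjusted p = 0.00898), a call not made without AML1-ETO LT-HSC replicate 2 (0.0516). Ppard, a nuclear receptor that switches on oxidation genes, was at 44.3, 57.8 and 44.1 CPM against 13.9, 14.2, 17.1 and 15.2 CPM (1.69 ± 0.25). Downstream of these, Echs1 and Acaa2, enzymes of the oxidation spiral, were lower (-1.41 ± 0.19 and -1.57 ± 0.26), and Acadl, an acyl-CoA dehydrogenase, was higher (0.74 ± 0.16). Plin2, which coats lipid droplets, stood at 26.7, 25.3 and 31.9 CPM against 78.4, 82.1, 87.4 and 67.4 CPM (-1.50 ± 0.25).

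Cholesterol synthesis had a single direction: of 24 genes 13 were lower and none higher than in control GMPs, with a median of -1.34, and 22 were lower with the 7 compared libraries. In control LT-HSCs 1 was lower and 1 higher, with a median of -0.20. Sqle, squalene epoxidase, stood at 2.99, 2.53 and 2.75 CPM in the AML1-ETO LT-HSCs, with 38.9, 33.01, 30.2 and 44.1 CPM in control LT-HSCs and 39.6, 32.5, 49.4 and 47.3 CPM in control GMPs (-3.93 ± 0.31 against control GMPs, edgeR adjusted p = 1.35e-06). Cyp51, lanosterol demethylase, was at 1.91, 2.46 and 2.57 CPM, against 30.2, 19.6, 47.6 and 53.4 CPM in control LT-HSCs and 33.7, 26.1, 48.8 and 39.2 CPM in control GMPs (-3.99 ± 0.40). For both genes the AML1-ETO LT-HSC values lay well under both control groups, whose values overlapped each other. Srebf2, the transcription factor of the pathway, was at 222, 200.3 and 226 CPM against 153, 181, 199 and 211 CPM and was not called.

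Immediate early and interferon genes were mostly higher in LT-HSCs of either genotype than in control GMPs. Of 37 immediate early genes, which answer growth and stress signals within minutes, 28 were higher and 2 (Myc and Gadd45a) lower in AML1-ETO LT-HSCs, with a median log2 fold change of 3.02, while control LT-HSCs had 22 higher and 2 lower, with a median of 1.67. The list took 7.18, 5.53 and 3.26% of the counts of the 3 AML1-ETO LT-HSC libraries, 1.34 to 3.19% in control LT-HSCs and 0.512 to 0.815% in control GMPs, so that every AML1-ETO LT-HSC library lay above every control library. Junb stood at 5756, 4606 and 2524 CPM in the AML1-ETO LT-HSCs, with 1684, 1807, 714 and 1064 CPM in control LT-HSCs and 234, 296, 184 and 149 CPM in control GMPs (4.32 ± 0.37, edgeR adjusted p = 1.87e-06). The spread between the AML1-ETO LT-HSC libraries was wide, with replicate 1 highest.

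Of 42 interferon response genes tested, of 43 listed, 28 were higher and 2 (Cmpk2 and Ifit2) lower in AML1-ETO LT-HSCs than in control GMPs, with a median of 2.00. The calls of Cmpk2 and Ifit2 were lost without AML1-ETO LT-HSC replicate 2, Cmpk2 also without replicate 3 and Ifit2 also without replicate 1 or any 1 control GMP library, and the fit of the 7 compared libraries called 6 lower. Control LT-HSCs had 25 higher and 1 lower, with a median of 1.45. Irf7, a master factor of the response, was at 78.4, 82.8 and 55.5 CPM in the AML1-ETO LT-HSCs, with 28.9, 65.2, 13.4 and 29.8 CPM in control LT-HSCs and 3.43, 3.72, 2.01 and 2.33 CPM in control GMPs (4.65 ± 0.52, edgeR adjusted p = 1.25e-05). Ddx58, the RIG-I sensor of viral RNA, was at 127, 131 and 115 CPM against 86.7, 62.3, 49.6 and 67.1 CPM in control LT-HSCs and 16.7, 16.5, 11.5 and 16.5 CPM in control GMPs (3.02 ± 0.21). Poly(I:C), an inducer of interferon, is listed for all these groups. The time between the last dose and the sort is not given in the labels.

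Of the genes linked to the human leukaemia with t(8;21), 13 of 16 were tested. Of these, 5 were higher, Runx1, Runx1t1, Jup and Plcg1 among them, and 4 (Bcl2, Ccnd2, Cebpa and Spi1) lower than in control GMPs. The call of Ccnd2 was lost in 15 alternatives, DESeq2's Wald test (adjusted p = 0.0822) and edgeR with upper-quartile factors (0.0804) among them. Plcg1, a phospholipase, stood at 325, 382 and 314 CPM in the AML1-ETO LT-HSCs, with 139, 71.5, 54.6 and 74.9 CPM in control LT-HSCs and 58.4, 64.1, 46.6 and 59.4 CPM in control GMPs (2.57 ± 0.30, edgeR adjusted p = 1.89e-05). Jup, gamma-catenin, was at 63.4, 92.1 and 65.9 CPM against 5.89, 5.92, 6.17 and 6.52 CPM (3.59 ± 0.49), and the survival gene Bcl2 at 14.7, 5.84 and 21.5 CPM in the AML1-ETO LT-HSCs, with 75.6, 75.2, 234 and 120.5 CPM in control LT-HSCs and 98.3, 117, 96.7 and 104 CPM in control GMPs (-2.88 ± 0.51), with the AML1-ETO LT-HSC values under both control groups.

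The largest changes of single genes were between presence and 0 counts. Of the 2228 genes higher in AML1-ETO LT-HSCs 111 had 0 counts in all control GMP libraries, and of the 2790 lower genes 116 had 0 counts in all AML1-ETO LT-HSC libraries. Pgr, the progesterone receptor, was at 123, 62.4 and 92.2 CPM in the AML1-ETO LT-HSCs, with 19.5, 8.46, 0 and 4.28 CPM in control LT-HSCs and 0 in control GMPs, at least 2155-fold higher. Frzb, a secreted WNT antagonist, at 35.7, 65.96 and 47.3 CPM, and Scn11a, a sodium channel of sensory neurons, at 29.3, 76.3 and 39.9 CPM, were likewise at 0 counts in control GMPs. Other large rises were Gimap3 and Gimap4, GTPases of lymphocytes, the mast cell proteases Tpsb2 and Mcpt4, the immunoglobulin light chain Igkc and the protease Adamts9. Igkc was at 112, 14.4 and 74.5 CPM in the AML1-ETO LT-HSCs, at 4205, 22950.0, 3346 and 4368 CPM in control LT-HSCs and at 0 in control GMPs.

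Besides Elane, Epx and Prg3, the largest falls were Mefv, the pyrin gene of myeloid cells, at 0 against 80.7, 83.3, 82.7 and 80.3 CPM in control GMPs, Trem3, a myeloid receptor of mice, at 0 against 83.6, 61.6, 74.3 and 67.3 CPM, and Prom1, the CD133 gene, at 0 against 50.3, 29.9, 35.98 and 51.2 CPM. These 3 were at least 1257-fold, 1102-fold and 643-fold lower. Abcd2, a peroxisomal transporter of long acyl-CoA, was at 0 against 74.7, 84.4, 65.9 and 73.4 CPM, and Cldn15, Ptpru and Apba1 were also at 0. All of them were at 0 to 5.95 CPM in control LT-HSCs.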

How the data were processed

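RNA of sorted LT-HSCs and GMPs was amplified and made into libraries with SMART-Seq v4 and SMARTer stranded kits, per the labels' protocols. The authors deposited a table of raw counts per gene for 14 libraries; per the submitters' processing notes the tools were HISAT2 2.0.5 and featureCounts 1.5.0-p3, on the mm10 build. Strand setting and annotation: not given in the sources used here. A gene and its antisense partner may therefore share reads. Of 54532 symbols, 27 lines with date-like names held 0.140% of the counts and 98.7% matched GENCODE M21, from which coordinates come. Replicates of a group differed beyond counting noise in every pair (chi-square per gene 9.20 to 216).

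Counts of all 14 libraries were fitted with edgeR 4.0.16 (R 4.3.3; TMM factors, filterByExpr, quasi-likelihood test, 1 mean per group, 10 residual degrees of freedom, common biological coefficient of variation 0.728). Benjamini-Hochberg adjustment ran over all 16116 genes, and a call is an adjusted p under 0.05. Levels are CPM on TMM-scaled library sizes; correlations used log2 CPM with a prior count of 2. Intervals are 95%. Genes with 0 counts in a group were set against 3 counts over that group, which covers counting error only. Alternatives were DESeq2 1.42.0, limma 3.58.1 (voom), other scalings and filters, the 7 compared libraries alone, the replicate number as a block and each library left out. Promoters are RefSeq windows of GRCm38.p6, matched by symbol for the genes shown; Prss57 had none. Figures were drawn with matplotlib 3.10.9 in Python 3.11.15.

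Gene lists and members were chosen with earlier results of these data known. Genes are named by a rule: a core panel, the 10 largest rises and 10 largest falls, the 4 called members of each list with the smallest adjusted p (the largest changes and list members needing a mean of at least 20 counts and groups that do not overlap), and the members behind any count of 5 or fewer. Acaca, Bcl11a, Camp, Cbfb, Cd200r3, Cebpd, Csf2rb, Cst7, Ctsc, Etv6, Fcnb, Gstm1, Hexa, Id2, Ifngr1, Ifngr2, Il6st, Klf1, Ltf, Lyz2, Mcpt1, Mcpt8, Mgst1, Mitf, Nfe2, Ngp, Npm1, Pcna, Pf4, Phgdh, Rara, Rgs13, Runx2, Runx3, Satb1, Srebf2, Tfec, Tnfrsf1a, Treml1, Zbtb16 and Zeb2 fall outside it and were chosen after their values were seen. A few genes are not reported here.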

Additional observations from a re-analysis of the deposited data

Results flagged for a closer look

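In a group of 4 libraries, 1 was taken to stand apart where its gap to the nearest other library as a share of the whole range of the group (its gap ratio) passed Dixon's 95% limit. Chance does this in about 1 of 20 groups. It was found for 16 of 216 genes examined in control GMPs, for 25 of 220 in control LT-HSCs and for 5 of 64 shares of gene lists. The groups of 3 libraries were not examined. Values in brackets are the CPM of the library that stood apart, that of the nearest other library of its group and the gap ratio.

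Control LT-HSC replicate 1 was the highest for Meis1 (297 against 177 CPM, gap ratio 0.85), Adamts9 (1.69 against 0 CPM, gap ratio 1) and Prg3 (2.28 against 0 CPM, gap ratio 1). The same library was lowest for Aqp1 (189.7 against 461 CPM, gap ratio 0.834), Uqcrc1 (170.0 against 249 CPM, gap ratio 0.972), Echs1 (58.2 against 86.1 CPM, gap ratio 0.895) and Cpox (98.0 against 153 CPM, gap ratio 0.933). Control LT-HSC replicate 2 was the highest for Ly6a (217 against 66.1 CPM, gap ratio 0.878), Igkc (22950.0 against 4368 CPM, gap ratio 0.948), Abcd2 (1.91 against 0 CPM, gap ratio 1) and Jchain (4743 against 795 CPM, gap ratio 0.942). It was also the highest for Il2rb (64.0 against 43.8 CPM, gap ratio 0.891) and Hexa (105 against 66.7 CPM, gap ratio 0.861). Control LT-HSC replicate 3 was the highest for Irf8 (79.1 against 25.3 CPM, gap ratio 0.854), Ncf1 (32.7 against 7.70 CPM, gap ratio 0.913), Clec12a (39.7 against 4.50 CPM, gap ratio 0.921) and Gp5 (66.2 against 30.9 CPM, gap ratio 0.928). It was also the highest for Dntt (207 against 55.1 CPM, gap ratio 0.921) and Zbtb16 (276 against 22.4 CPM, gap ratio 0.919). The same library was lowest for Csf2ra (34.8 against 68.5 CPM, gap ratio 0.947). Control LT-HSC replicate 4 was the highest for Cebpa (24.7 against 3.47 CPM, gap ratio 0.957), Tpsb2 (3.94 against 0 CPM, gap ratio 1), Cma1 (3.20 against 0 CPM, gap ratio 1), Cd200r3 (2.58 against 0 CPM, gap ratio 1) and Gzmb (8.64 against 1.23 CPM, gap ratio 0.858).

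Control GMP replicate 1 was the highest for Ear2 (31.3 against 14.5 CPM, gap ratio 0.85) and Clec12a (496 against 442 CPM, gap ratio 0.833). It was the lowest for Slc2a3 (18.3 against 23.0 CPM, gap ratio 0.936) and Pf4 (1.12 against 6.81 CPM, gap ratio 0.894). Control GMP replicate 2 was the highest for Gzmb (105 against 39.2 CPM, gap ratio 0.937), Cdkn1b (83.7 against 64.2 CPM, gap ratio 0.838) and Acss1 (44.8 against 36.5 CPM, gap ratio 0.854). It was the lowest for Uqcrc1 (357 against 391 CPM, gap ratio 0.944). Control GMP replicate 3 was the highest for Cd48 (92.1 against 81.9 CPM, gap ratio 0.868) and Cebpb (64.7 against 48.8 CPM, gap ratio 0.83). It was the lowest for Pole (108 against 129 CPM, gap ratio 0.855) and Ddx58 (11.5 against 16.5 CPM, gap ratio 0.966). Control GMP replicate 4 was the highest for Top2a (686 against 577 CPM, gap ratio 0.891), Rrp1b (149 against 136 CPM, gap ratio 0.852) and Ifit2 (26.9 against 22.9 CPM, gap ratio 0.891). It was the lowest for Acadl (80.2 against 87.3 CPM, gap ratio 0.938).

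The share of counts of the monocyte and dendritic cell list was highest in control GMP replicate 3, at 0.374% with the nearest library at 0.340% (gap ratio 0.832). The share of counts of the B cell and plasma cell list was highest in control LT-HSC replicate 2, at 7.62% with the nearest library at 2.00% (gap ratio 0.921). The share of counts of the T and NK cell list was highest in control LT-HSC replicate 3, at 0.116% with the nearest library at 0.0316% (gap ratio 0.92). The share of counts of the list linked to human leukaemia with t(8;21) was lowest in control GMP replicate 1, at 0.142% with the nearest library at 0.154% (gap ratio 0.83). The share of counts of the HOX and partner genes list was highest in control LT-HSC replicate 1, at 0.119% with the nearest library at 0.0771% (gap ratio 0.865).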

How the results depend on the processing

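The fit of the 7 compared libraries alone, with 5 residual degrees of freedom and a common coefficient of variation of 0.225, called 4648 genes higher in AML1-ETO LT-HSCs than in control GMPs and 4831 lower, against 2228 and 2790 with all 14 libraries, and kept 4974 of the 5018 calls. Leaving out 1 library gave 1672 to 2686 higher and 2016 to 3233 lower. For control LT-HSCs against control GMPs it gave 1103 to 2092 higher and 1505 to 2498 lower, with 1103 higher without control GMP replicate 3 against 1702 with all libraries, and DESeq2's Wald test gave 2676 higher. DESeq2's size factors moved the median of all genes by 0.18 and upper-quartile factors by 0.11, so changes smaller than that depend on the scaling. The share of calls that were higher was 44.4% with TMM, 54.1% with DESeq2's size factors, 50.4% with upper-quartile factors and 53.5% by DESeq2.

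The replicate number as a block gave 1835 higher and 2476 lower (1292 and 1799 for control LT-HSCs against control GMPs). Same-numbered libraries of the 2 groups deviated together with correlations of 0.0603, 0.0676 and 0.0907, none above 0.1. Pairs with different numbers ran from -0.0703 to 0.0415, so each AML1-ETO LT-HSC library correlated best with its own number. Whether the numbers pair the libraries was not tested. Of 203 genes named by the rule, 190 were called. Of these, 156 lost the call under no alternative that gave them a result, and 165 kept it whichever library was left out. DESeq2 and the fit of the 7 compared libraries did not give a result for every named gene. None changed direction with a call. Of the 13 not called, 10 were called with the 7 compared libraries, a fit that called 9479 of the 14694 genes it tested. Those 10 include abundant genes such as Cd34, Csf3r and Gfi1. The common coefficient of variation was 0.728 with all 14 libraries and 0.225 with the 7. A pooled spread wide for rare genes and a floor of 0.0650 CPM in AML1-ETO LT-HSCs, against 0.0430 CPM in control GMPs, also limit what low genes can show.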
